A study of Arabidopsis thaliana with 22 samples.

Results

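Of 22 Arabidopsis thaliana seedling libraries, 4 formed the GSL-OH-low genotype: columns 13 and 14 of the count table, set against columns 2 and 4. They were chosen from measured values, because GSL-OH (AT2G25450) was under 1.1 CPM in these columns alone. CPM is the count of a locus scaled to the total count of its library. The grouping is by column and by levels at genotype loci, and not by label. By label, column 13 is Lip-0 mock replicate 2 and column 14 is Lip-0 UV replicate 1. Column 2 is labelled Ba-1 mock replicate 2 and column 4 Ba-1 UV replicate 2. Lip-0 and Ba-1 are natural accessions, that is, inbred wild strains. Each pair therefore holds 1 library labelled UV and 1 labelled mock, and taken by label the comparison is Lip-0 against Ba-1.

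Whole seedlings had been grown on soil for 14 days in long days, and the treated ones were exposed to unfiltered fluorescent UV tubes (4.35 W per square metre at 312 nm, a UV-B wavelength). Harvest followed after 3 h under standard growth conditions. The study compared 6 accessions with and without UV, and all libraries are of soil-grown seedlings with no transgene or mutation named. In the table, columns 1 to 11 carry the labels Ba-1, C24 and Got-7, and columns 12 to 22 carry Lip-0, Mh-0 and T1080. The 2 sets of 11 columns were recognised as separate from the values, and no label states what distinguishes them. Nothing in the labels says that libraries came from separately grown plants, so p-values measure the spread between these 4 libraries, which may be technical. The main test between the pairs had no term for the labelled treatment. Its spread within a pair therefore also holds any difference between the libraries labelled mock and UV.

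GSL-OH encodes a 2-oxoglutarate-dependent dioxygenase that hydroxylates the side chain of butenyl glucosinolate, an aliphatic glucosinolate made from methionine. Glucosinolates are defence compounds of the mustard family, and natural accessions differ in which side chains they make because genes such as AOP2, AOP3, MAM1 and GSL-OH are present, absent or silent in different strains. Leaves and seedlings answer damage and pathogens with salicylic acid, jasmonate and ethylene signalling, with camalexin and indolic glucosinolates made from tryptophan, and with detoxifying enzymes, often while growth and photosynthesis genes decline. UV-B light is sensed by the receptor UVR8, which acts through COP1 and HY5 on genes of flavonoid synthesis and photoprotection.

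GSL-OH stood at 0.835 and 0.974 CPM in columns 13 and 14 (8 and 10 counts) and at 0.572 and 1.07 CPM in columns 2 and 4 (4 and 8 counts). The next library above the limit had 8.99 CPM and the highest had 300.9 CPM. These are the values that chose the columns and are given as a description. Of the other loci, 56 were below 0.5 CPM in some of the 22 libraries and at 10 CPM and more in all the rest, and could be read as off or on. The 4 columns shared their state at 46 of these, with 15 on and 31 off. The remaining 10 were on in columns 13 and 14 and off in columns 2 and 4, and 8 of those 10 split all 22 columns into the same 2 sets. No locus differed within a pair. Against column 13, the other columns from 12 to 22 differed at 13 to 25 loci, and against column 2, the other columns from 1 to 11 differed at 12 to 24.

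AT5G36900 was the 1 locus whose state set these 4 columns apart from all others. It had 85.3 and 79.7 CPM in columns 13 and 14 and 52.5 and 51.3 CPM in columns 2 and 4, and under 0.5 CPM in the other 18. ACD6, an ankyrin-repeat regulator of cell death with known variation among accessions, had 19.9 and 19.3 CPM in columns 13 and 14 and 21.9 and 48.0 CPM in columns 2 and 4. The other 18 libraries had at least 77.6 CPM of ACD6. ESP, which steers glucosinolate breakdown to nitriles, was abundant in all 4, with 2285 and 2310 CPM in columns 13 and 14 and 2749 and 2731 CPM in columns 2 and 4. FLC, which represses the transition to flowering, had 85.9 and 90.0 CPM in columns 13 and 14 and 101.7 and 99.3 CPM in columns 2 and 4. These loci were picked out after their values had been seen, and they carry no test.

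**Figure D1:**
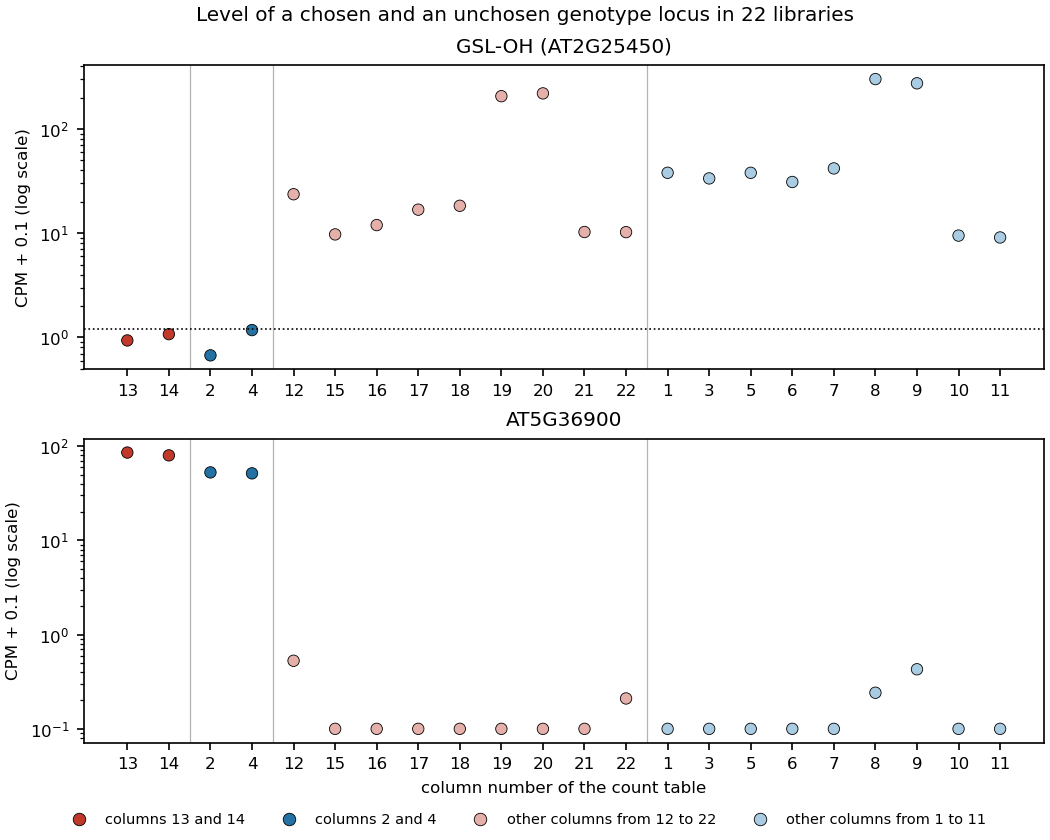
CPM plus 0.1 on a log scale, by column of the count table, for GSL-OH (top, which chose the columns) and AT5G36900 (bottom, which did not). Each point is 1 library, grey lines part the groups of columns, and the dotted line marks the 1.1 CPM limit. Columns 13, 14, 2 and 4 lie below the line for GSL-OH and between 51.3 and 85.3 CPM for AT5G36900, where all others are under 0.5 CPM.

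Columns 13 and 14 held 9583508 and 10264646 counts, and columns 2 and 4 held 6987725 and 7441861, so depth moved with the comparison. Correlations used log2 of CPM plus 1, over loci with at least 1 CPM in 2 or more of the 22 libraries. Pearson's r was 0.994 between columns 13 and 14, 0.993 between columns 2 and 4, and 0.847 to 0.849 across the pairs. Columns 13 and 14 correlated at 0.935 to 0.963 with the other columns from 12 to 22, and columns 2 and 4 at 0.946 to 0.971 with the other columns from 1 to 11. These coefficients are across loci, which are not independent replicates, and describe the libraries. Chloroplast-encoded loci took 0.228% and 0.187% of counts in columns 13 and 14, against 0.0667% and 0.0522% in columns 2 and 4. Mitochondrial loci took 0.037% and 0.0379% in columns 13 and 14, against 0.0186% and 0.0136% in columns 2 and 4. The part of these differences in the results below was not tested. Within each pair the counts differed by more than sampling noise (chi-square per degree of freedom 3.35 for columns 13 and 14 and 2.67 for columns 2 and 4), so no library was treated as a copy of another.

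Columns 13 and 14 differed from columns 2 and 4 at a large share of the expressed loci. The share depended on the tool, with 9941 loci called by edgeR and 7319 by DESeq2 on the same 4 libraries. Defence, detoxification, heat shock and senescence genes were higher in columns 13 and 14, many from near 0 in columns 2 and 4, while aliphatic glucosinolate, auxin response, mitotic and photosynthesis genes were lower. Of 17009 loci tested with edgeR's quasi-likelihood test, 9941 (58.4%) were called at a Benjamini-Hochberg adjusted p under 0.05. Of all loci tested, 5172 (30.4%) were higher and 4769 (28.0%) were lower in columns 13 and 14. With a further requirement of a 4-fold change, 1791 (10.5%) were called, of which 1500 (8.82%) were higher and 291 (1.71%) lower. The median log2 fold change of all tested loci was 0.004. The 2 libraries of one pair lay wholly above or below those of the other at 13570 loci (79.8%). An exact permutation test of 2 libraries against 2 cannot go below p = 0.333, so no single locus can be tested that way. The 4-fold count was 1174 without column 13 and 1183 without column 14, and a fit over all 22 libraries called 5543 loci (2903 higher and 2640 lower).

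**Figure D2:**
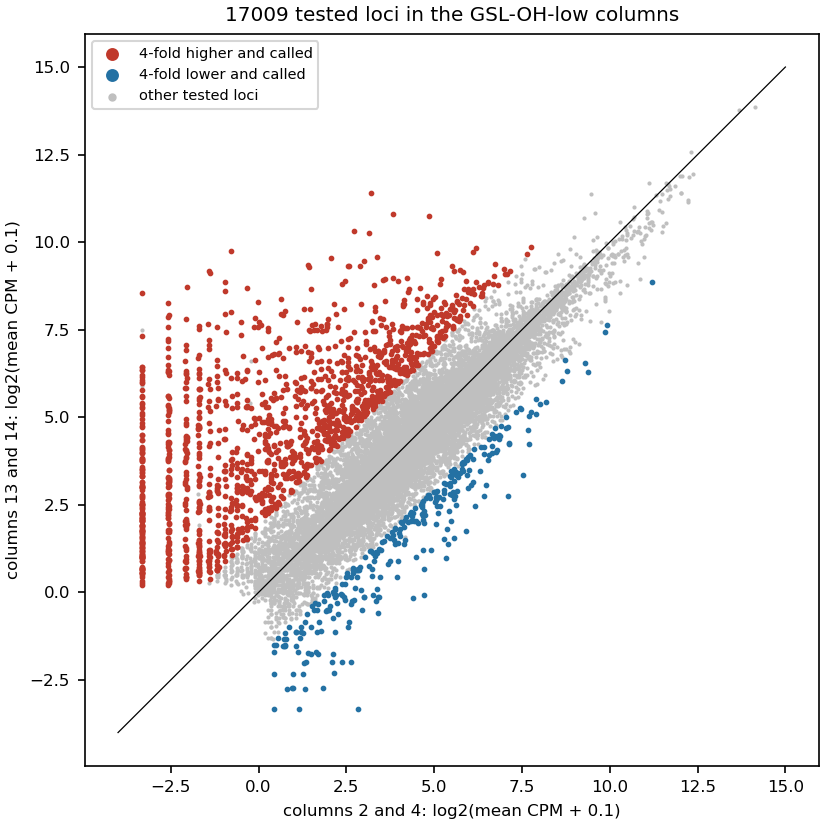
Log2 of mean CPM plus 0.1 for 17009 tested loci, with columns 13 and 14 on the vertical and columns 2 and 4 on the horizontal axis. Red points are called and at least 4-fold higher (1500 loci), blue points are called and at least 4-fold lower (291 loci), grey points are the other loci, and the line marks equal levels. The red points fan out towards the left edge, where columns 2 and 4 had 0 or a few counts.

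The 10 largest increases among called loci with at least 10 CPM in columns 13 and 14 had 0 counts in columns 2 and 4, so each fold is a lower bound set against 3 counts over both libraries. AT2G04070, a transporter of the MATE efflux family (chr2:1353755-1355883 in TAIR10.1, minus strand), had 393 and 350.5 CPM in columns 13 and 14 and was at least 1785-fold higher than in columns 2 and 4. AOX1D, a mitochondrial alternative oxidase (chr1:11666886-11668690, minus strand), had 163 and 153.7 CPM in columns 13 and 14 and was at least 761-fold higher. Alternative oxidases pass electrons from ubiquinol to oxygen without pumping protons. The others were the uncharacterized AT5G22530, the glycolipid transfer protein family member AT4G39670, the O-methyltransferase family member AT1G33030, the acyltransferase family member AT2G32030, the ankyrin protein AT3G13950, the phloem protein PP2-B14, the TIR-NBS-LRR disease resistance family member AT4G14370 and the receptor-like protein RLP7. Their bounds ran from 308-fold for RLP7 to 420-fold for AT5G22530.

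The 10 largest decreases included 3 SAUR-like auxin-responsive genes. AT2G21210 had 0.730 and 0.974 CPM in columns 13 and 14, against 26.1 and 26.1 CPM in columns 2 and 4. AT4G38860 had 2.09 and 1.66 CPM in columns 13 and 14, against 40.5 and 40.9 CPM in columns 2 and 4. SAUR genes are rapidly induced by auxin and many promote cell expansion. The same 10 held PRE1, a small helix-loop-helix protein of growth signalling, with 0.835 and 0.292 CPM in columns 13 and 14 against 10.6 and 10.4 CPM in columns 2 and 4. BBX14, a B-box zinc finger protein, had 8.56 and 11.8 CPM in columns 13 and 14 against 185 and 183 CPM in columns 2 and 4. The others were the SAUR-like AT4G38840, and AT3G28270, AT3G62550, AT5G62360, AT1G30250 and AT5G11070.

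Genes of oxidative stress and detoxification were almost all higher. Of 31 tested members, 28 were higher, 2 lower and 1 not called, where 30.4% of all loci were higher. At least 4-fold higher were 23, where 8.82% of all loci were. The list median log2 fold change was 5.73, or 5.20 with the genes at 0 counts in columns 2 and 4 set to their bounds, against 0.004 over all loci. Other enzymes of the alternative respiratory chain were higher beside AOX1D. AOX1A had 519 and 484 CPM in columns 13 and 14, against 15.9 and 12.1 CPM in columns 2 and 4 (log2 5.20 ± 0.10). NDB2, an external NADH dehydrogenase of mitochondria, had 158 and 197 CPM in columns 13 and 14, against 3.01 and 3.76 CPM in columns 2 and 4 (log2 5.73 ± 0.17). BCS1, an AAA-type ATPase of mitochondria, was higher still relative to columns 2 and 4, with 421 and 407 CPM in columns 13 and 14 against 0.572 and 0.806 CPM (log2 9.22 ± 0.14, edgeR adjusted p = 1.19e-18).

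Detoxifying enzymes moved the same way. CYP81D8, a cytochrome P450, had 606 and 553 CPM in columns 13 and 14, against 0.286 and 0.269 CPM in columns 2 and 4 (log2 10.98 ± 0.16, edgeR adjusted p = 5.62e-19). GSTU9, a tau-class glutathione transferase, had 316 and 304 CPM in columns 13 and 14, against 0 and 0.134 CPM in columns 2 and 4. Glutathione transferases conjugate reactive compounds to glutathione, and all 10 tested GSTU genes of the list were higher, with the neighbours GSTU24 and GSTU25 among them. Close paralogs of this kind may share reads. UGT74E2, a glucosyltransferase of indole-3-butyric acid, had 535 and 588 CPM in columns 13 and 14, against 0.572 and 0 CPM in columns 2 and 4. The 2 lower members act in the steady removal of hydrogen peroxide: CAT3 had 1321 and 1310 CPM in columns 13 and 14, against 2363 and 2236 CPM in columns 2 and 4, and APX1 had 718 and 778 CPM against 1033 and 959 CPM. FSD1, the plastid iron superoxide dismutase, was not called, with 670 and 466 CPM in columns 13 and 14 and 672 and 465 CPM in columns 2 and 4.

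Mitochondrial stress is known to reach the nucleus through membrane-bound NAC factors, NAC013 and NAC017, which bind the mitochondrial dysfunction motif. NAC13 had 178 and 169 CPM in columns 13 and 14, against 5.58 and 7.26 CPM in columns 2 and 4 (log2 4.78 ± 0.11). NAC017 had 88.0 and 93.4 CPM in columns 13 and 14, against 48.1 and 44.2 CPM in columns 2 and 4 (log2 1.01 ± 0.09). The motif was searched on both strands of the 250 bases before the RefSeq gene start in TAIR10.1, where 403 of 23524 promoters (1.71%) held it. It lay in 4 of 24 promoters of the heat shock and unfolded protein list and in 4 of 34 of the oxidative stress list. In the oxidative stress list 28 of 31 tested members were higher, with or without the motif. The 4 genes of that list with the motif were all higher. AT2G21640, a known marker gene of oxidative stress, is one of them, with 130 and 128 CPM in columns 13 and 14 against 1.72 and 2.28 CPM in columns 2 and 4. In NDB2, AT2G21640 and CYP81D8 the same bases also match the motif of SOG1, described below. The promoter of AOX1D held no match, which says only that these letters are not in its 250 bases. The 4 promoters are shown 5′ to 3′ in the direction of the gene, with the motif in capitals, because they carry the motif next to genes that were higher. They are reference sequence from RefSeq and may differ in these accessions. They lie at chr4:2572177-2572426 (NDB2, plus strand, motif from -79), chr2:9254128-9254377 (AT2G21640, plus strand, motif from -51), chr1:12451155-12451404 (NAC017, plus strand, motif from -110) and chr4:17571744-17571993 (CYP81D8, minus strand, motif from -140).
NDB2: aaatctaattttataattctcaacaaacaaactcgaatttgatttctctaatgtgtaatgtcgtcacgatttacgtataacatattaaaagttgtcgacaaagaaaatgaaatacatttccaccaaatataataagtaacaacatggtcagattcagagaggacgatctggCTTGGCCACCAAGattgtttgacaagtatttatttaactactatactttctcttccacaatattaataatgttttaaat
AT2G21640: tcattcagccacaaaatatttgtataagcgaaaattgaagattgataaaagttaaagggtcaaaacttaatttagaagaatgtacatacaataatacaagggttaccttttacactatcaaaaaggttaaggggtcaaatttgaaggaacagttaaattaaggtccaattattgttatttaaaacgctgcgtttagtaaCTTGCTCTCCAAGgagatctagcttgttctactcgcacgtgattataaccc
NAC017: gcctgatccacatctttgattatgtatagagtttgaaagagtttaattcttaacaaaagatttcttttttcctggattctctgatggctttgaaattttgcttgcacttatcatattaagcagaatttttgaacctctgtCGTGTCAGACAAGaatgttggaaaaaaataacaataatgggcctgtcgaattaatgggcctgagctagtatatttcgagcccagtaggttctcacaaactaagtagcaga
CYP81D8: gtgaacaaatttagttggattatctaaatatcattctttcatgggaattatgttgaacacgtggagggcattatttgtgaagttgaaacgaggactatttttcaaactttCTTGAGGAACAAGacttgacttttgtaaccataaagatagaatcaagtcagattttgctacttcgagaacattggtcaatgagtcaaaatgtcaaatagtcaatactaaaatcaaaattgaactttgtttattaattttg

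**Figure D3:**
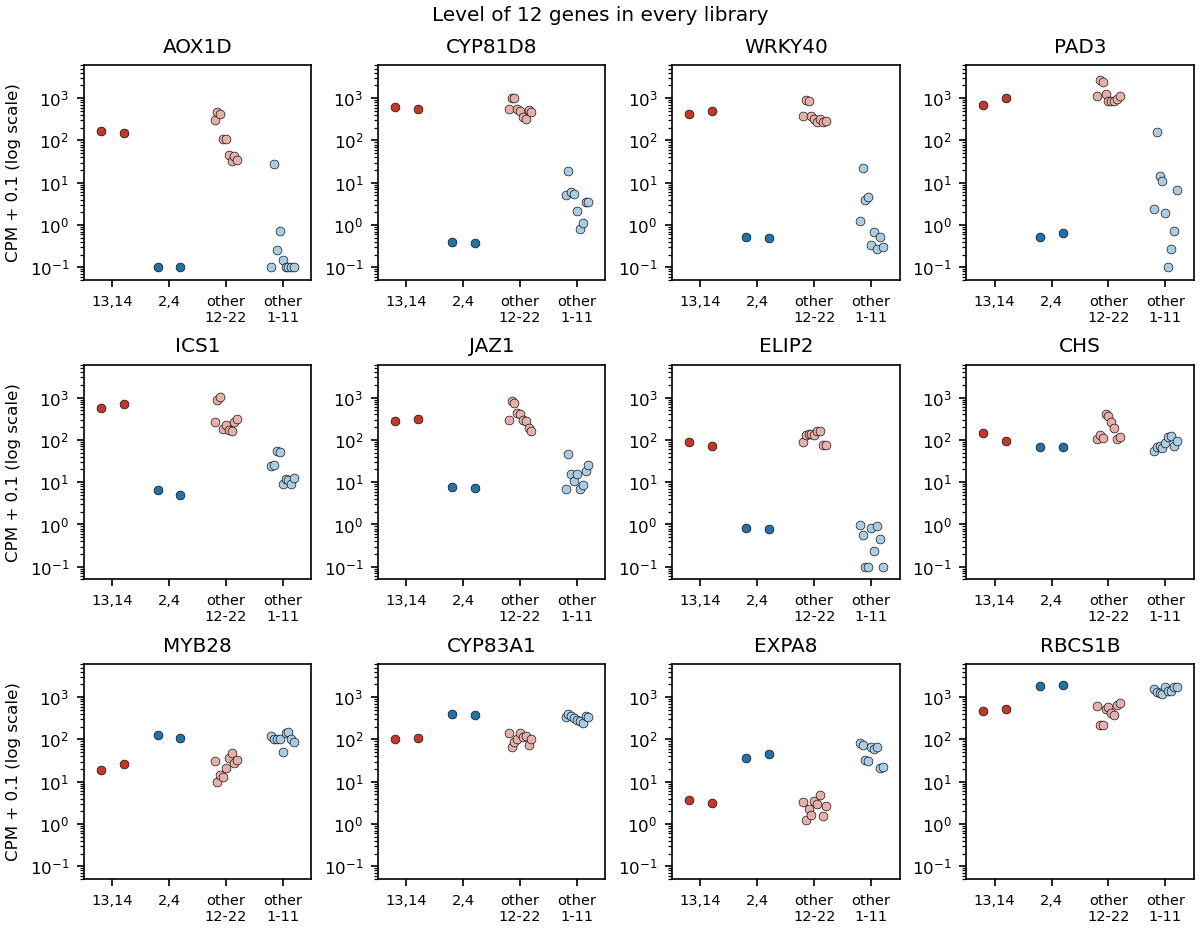
CPM plus 0.1 on a log scale for 12 genes, with 1 point per library: columns 13 and 14, columns 2 and 4, the other 9 columns from 12 to 22, and the other 9 columns from 1 to 11. AOX1D, CYP81D8, WRKY40, PAD3, ICS1, JAZ1 and ELIP2 are higher in columns 13 and 14 than in columns 2 and 4, MYB28, CYP83A1, EXPA8 and RBCS1B are lower, and CHS, at 147 and 94.2 against 68.1 and 68.7 CPM, was not called.

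Genes of pattern-triggered immunity, the response to conserved microbial molecules, were higher from receptors to transcription factors. Of 24 tested members 23 were higher and 1 was not called, where 30.4% of all loci were higher. At least 4-fold higher were 18, where 8.82% of all loci were, and the list median log2 fold change was 3.20. Among receptors and their partners, FLS2, the flagellin receptor, had 48.3 and 46.2 CPM in columns 13 and 14, against 23.9 and 25.0 CPM in columns 2 and 4. EFR, the receptor for bacterial elongation factor Tu, had 26.5 and 24.8 CPM in columns 13 and 14, against 3.72 and 4.17 CPM in columns 2 and 4. The cytoplasmic kinase BIK1, which relays both receptors, had 140.4 and 127 CPM in columns 13 and 14, against 11.7 and 12.6 CPM in columns 2 and 4 (log2 3.48 ± 0.10). Downstream, the map kinase MPK11 had 286 and 257 CPM in columns 13 and 14, against 1.72 and 2.96 CPM in columns 2 and 4 (log2 6.87 ± 0.14).

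The list holds several WRKY transcription factors. WRKY40 had 431 and 491 CPM in columns 13 and 14, against 0.429 and 0.403 CPM in columns 2 and 4 (log2 10.09 ± 0.17, edgeR adjusted p = 3e-18). WRKY46 had 231 and 253 CPM in columns 13 and 14, against 1.72 and 1.34 CPM in columns 2 and 4 (log2 7.33 ± 0.14). WRKY29 was the member not called, with 2.30 and 2.83 CPM in columns 13 and 14 and 2.86 and 3.49 CPM in columns 2 and 4. WRKY proteins bind the W-box, whose core is TTGAC. On both strands it lay in 10571 of 23524 promoters (44.9%) and in 20 of 24 of this list. FRK1, a receptor kinase gene used as a marker of flagellin signalling, had 47.3 and 47.0 CPM in columns 13 and 14, against 0.143 and 0.269 CPM in columns 2 and 4. Its promoter (chr2:8329945-8330194, minus strand) is shown because it carries 3 W-box cores, in capitals.
FRK1: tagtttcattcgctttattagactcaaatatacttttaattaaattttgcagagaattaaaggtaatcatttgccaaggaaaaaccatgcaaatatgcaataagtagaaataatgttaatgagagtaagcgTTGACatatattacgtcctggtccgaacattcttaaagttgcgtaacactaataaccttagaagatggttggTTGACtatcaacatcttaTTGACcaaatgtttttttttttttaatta

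Salicylic and pipecolic acid genes, which build systemic resistance, were higher in 22 of 23 tested members with none lower (median log2 2.80). Of the members 17 were at least 4-fold higher. Over all loci 30.4% were higher and 8.82% at least 4-fold higher. For synthesis, ICS1, the isochorismate synthase that begins the pathway, had 574 and 706 CPM in columns 13 and 14, against 6.44 and 4.97 CPM in columns 2 and 4 (log2 6.84 ± 0.16). PBS3, which conjugates isochorismate to glutamate, had 369.8 and 436 CPM in columns 13 and 14, against 2.86 and 2.55 CPM in columns 2 and 4 (log2 7.24 ± 0.14). EDS5, the plastid exporter of the intermediate, had 229 and 313 CPM in columns 13 and 14, against 4.29 and 6.32 CPM in columns 2 and 4 (log2 5.69 ± 0.30). All 3 genes act in salicylic acid synthesis and were called higher. The calmodulin-binding regulator CBP60G had 120.0 and 112 CPM in columns 13 and 14, against 1.57 and 2.42 CPM in columns 2 and 4. ALD1, the first enzyme of pipecolic acid synthesis, had 52.6 and 60.7 CPM in columns 13 and 14, against 0.143 and 0.134 CPM in columns 2 and 4.

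FMO1, which makes N-hydroxypipecolic acid, was the member not called. It had 116 and 243 CPM in columns 13 and 14 and 0 counts in columns 2 and 4, a difference of at least 874-fold. The edgeR adjusted p was 0.121. Columns 13 and 14 differed from each other at FMO1, which was called higher under the UV label, as described below (log2 1.09 ± 0.11). The signalling pair EDS1 and PAD4 was higher. EDS1 had 370.3 and 338 CPM in columns 13 and 14, against 25.5 and 29.7 CPM in columns 2 and 4 (log2 3.71 ± 0.09), and PAD4 had 83.2 and 95.1 CPM against 9.59 and 11.0 CPM. Of the receptors of salicylic acid, NPR1 and NPR4 were higher by less. NPR1 had 113 and 98.3 CPM in columns 13 and 14, against 28.3 and 34.4 CPM in columns 2 and 4. NPR4 had 41.0 and 47.2 CPM in columns 13 and 14, against 20.2 and 22.6 CPM in columns 2 and 4. The receptor NPR3 was higher by 2.79 ± 0.12 on the log2 scale, near the list median of 2.80. Among outputs, PR5 had 195 and 304 CPM in columns 13 and 14, against 37.9 and 35.6 CPM in columns 2 and 4. PR1 did not reach 1 CPM in 2 of the 4 libraries and was not tested.

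Camalexin is the indole phytoalexin of Arabidopsis and shares its first steps with indolic glucosinolates. Of 23 tested members, 21 were higher, 1 lower and 1 not called (median log2 2.66), where 30.4% of all loci were higher. At least 4-fold higher were 15, where 8.82% of all loci were. Among the genes of tryptophan supply was ASA1, an anthranilate synthase subunit, at 344 and 427 CPM in columns 13 and 14 against 61.1 and 63.2 CPM in columns 2 and 4. CYP79B2, which turns tryptophan into its oxime, had 775 and 884 CPM in columns 13 and 14, against 34.5 and 32.9 CPM in columns 2 and 4 (log2 4.65 ± 0.09). PAD3, the last enzyme of camalexin synthesis, had 702 and 1027 CPM in columns 13 and 14, against 0.429 and 0.537 CPM in columns 2 and 4 (log2 10.79 ± 0.55). WRKY33, the activator of PAD3, had 634 and 636 CPM in columns 13 and 14, against 5.58 and 9.00 CPM in columns 2 and 4.

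The MYB regulators of indolic glucosinolates went opposite ways. MYB51 had 166 and 192 CPM in columns 13 and 14, against 2.15 and 3.09 CPM in columns 2 and 4 (log2 6.11 ± 0.15). MYB34 was the 1 lower member, with 9.29 and 6.82 CPM in columns 13 and 14 against 25.0 and 24.3 CPM in columns 2 and 4 (log2 -1.59 ± 0.16). CYP81F2, which hydroxylates the indole ring, had 100.1 and 108 CPM in columns 13 and 14, against 0 and 0.403 CPM in columns 2 and 4. PEN2 and PEN3, the myrosinase and the transporter that deploy these compounds at the cell surface, were higher from a substantial level. PEN3 had 2529 and 2740 CPM in columns 13 and 14, against 679 and 730.2 CPM in columns 2 and 4 (log2 1.93 ± 0.06). CYP71A12 and CYP71A13 were also called, but they are near-identical neighbours and the counting may have split reads between them.

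The aliphatic glucosinolate genes, the branch in which GSL-OH acts, were lower almost throughout. Of 21 tested members 20 were lower and 1 was not called, where 28.0% of all loci were lower. At least 4-fold lower were 5, where 1.71% of all loci were, and the list median log2 fold change was -1.35. MYB28, the main activator of the branch, had 18.5 and 26.4 CPM in columns 13 and 14, against 127 and 105 CPM in columns 2 and 4 (log2 -2.33 ± 0.18). MYB29, its partner, had 6.89 and 7.60 CPM in columns 13 and 14, against 33.5 and 32.4 CPM in columns 2 and 4 (log2 -2.15 ± 0.14). These 2 factors switch on the genes of chain elongation and core synthesis. In chain elongation, MAM3 had 12.0 and 15.68 CPM in columns 13 and 14, against 64.4 and 74.4 CPM in columns 2 and 4. BCAT4, the transaminase that starts from methionine, had 92.0 and 93.9 CPM in columns 13 and 14, against 242 and 242 CPM in columns 2 and 4. CYP83A1, which acts on the aldoximes, had 100.7 and 108 CPM in columns 13 and 14, against 409 and 382 CPM in columns 2 and 4 (log2 -1.89 ± 0.07, edgeR adjusted p = 2e-13). The sulfotransferases differed: SOT18 was lower, with 29.8 and 36.2 CPM in columns 13 and 14 against 121 and 118 CPM in columns 2 and 4, while SOT17 was not called, with 66.6 and 66.0 CPM against 73.1 and 61.8 CPM.

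Jasmonate genes were mixed, with 15 of 24 tested members higher, 4 lower and 5 not called. The shares over all loci were 30.4% higher and 28.0% lower. At least 4-fold higher were 11 members, where 8.82% of all loci were, and the list median log2 fold change was 1.23. Among the enzymes, LOX4, a 13-lipoxygenase, had 177 and 174 CPM in columns 13 and 14, against 3.58 and 1.75 CPM in columns 2 and 4 (log2 6.08 ± 0.15). LOX2, the abundant leaf 13-lipoxygenase, went the other way, with 320.0 and 373 CPM in columns 13 and 14 against 860 and 1022 CPM in columns 2 and 4 (log2 -1.41 ± 0.11). AOS, the allene oxide synthase, was also lower, with 154 and 189.7 CPM in columns 13 and 14 against 324 and 329.5 CPM in columns 2 and 4. The repressors of the pathway are themselves induced by jasmonate, and JAZ1 had 287 and 317 CPM in columns 13 and 14 against 7.59 and 7.26 CPM in columns 2 and 4 (log2 5.38 ± 0.11). VSP2, a storage protein gene switched on through MYC2, was not called, with 59.6 and 50.8 CPM in columns 13 and 14 and 54.8 and 65.7 CPM in columns 2 and 4.

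Ethylene synthesis and early ERF genes were higher in 19 of 22 tested members, lower in 1 and not called in 2 (median log2 2.71). At least 4-fold higher were 12. Over all loci 30.4% were higher and 8.82% at least 4-fold higher. Both of the named synthases of the ethylene precursor were higher. ACS2 had 237 and 214 CPM in columns 13 and 14, against 0.143 and 0.134 CPM in columns 2 and 4 (log2 10.55 ± 0.19). With 2 counts in columns 2 and 4, the exact 95% interval of its fold ran from 449 to 13406, wider than that error. ACS6 had 249 and 272 CPM in columns 13 and 14, against 10.0 and 9.54 CPM in columns 2 and 4. Among the response factors, ERF1A had 97.7 and 112 CPM in columns 13 and 14, against 2.86 and 2.55 CPM in columns 2 and 4. ERF1 had 21.7 and 23.2 CPM in columns 13 and 14 and 0 counts in columns 2 and 4, a difference of at least 108-fold. The central factors EIN3 and EIL1 changed little and in opposite directions, with EIN3 at 140.4 and 142 CPM in columns 13 and 14 against 105 and 115 CPM in columns 2 and 4, and EIL1 at 36.3 and 34.3 CPM against 60.1 and 67.0 CPM.

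Heat shock and unfolded protein genes were higher in 14 of 17 tested members with none lower (median log2 2.88), where 30.4% of all loci were higher. At least 4-fold higher were 10, where 8.82% of all loci were. AT5G51440, a small heat shock family gene, had 239 and 258 CPM in columns 13 and 14, against 1.29 and 1.61 CPM in columns 2 and 4 (log2 7.43 ± 0.14, edgeR adjusted p = 1.5e-17). HSP90.1, a cytosolic chaperone, had 152 and 257 CPM in columns 13 and 14, against 3.44 and 4.03 CPM in columns 2 and 4 (log2 5.80 ± 0.60). The response was uneven across the family. HSP101, the disaggregase of heat tolerance, differed by less, with 20.14 and 20.7 CPM in columns 13 and 14 against 13.2 and 12.9 CPM in columns 2 and 4 (log2 0.68 ± 0.14), and HSP18.2 was not called. Another 7 members, small heat shock proteins among them, stayed below 1 CPM in at least 3 of the 4 libraries and were not tested.

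Senescence and stress NAC genes were higher in 14 of 16 tested members with none lower (median log2 3.19), where 30.4% of all loci were higher. At least 4-fold higher were 11, where 8.82% of all loci were. SAG21, a late embryogenesis family protein induced in senescence and oxidative stress, had 718 and 772 CPM in columns 13 and 14, against 3.44 and 4.70 CPM in columns 2 and 4 (log2 7.53 ± 0.12, edgeR adjusted p = 1.19e-18). ATAF2, a stress NAC factor, had 485 and 527 CPM in columns 13 and 14, against 19.2 and 17.7 CPM in columns 2 and 4 (log2 4.81 ± 0.09). The chlorophyll breakdown genes moved less: NYE1 had 13.5 and 14.3 CPM in columns 13 and 14, against 5.72 and 7.79 CPM in columns 2 and 4, and PAO was not called, with 62.5 and 65.4 CPM against 65.7 and 72.7 CPM. SAG12 was too low to be tested.

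**Figure D4:**
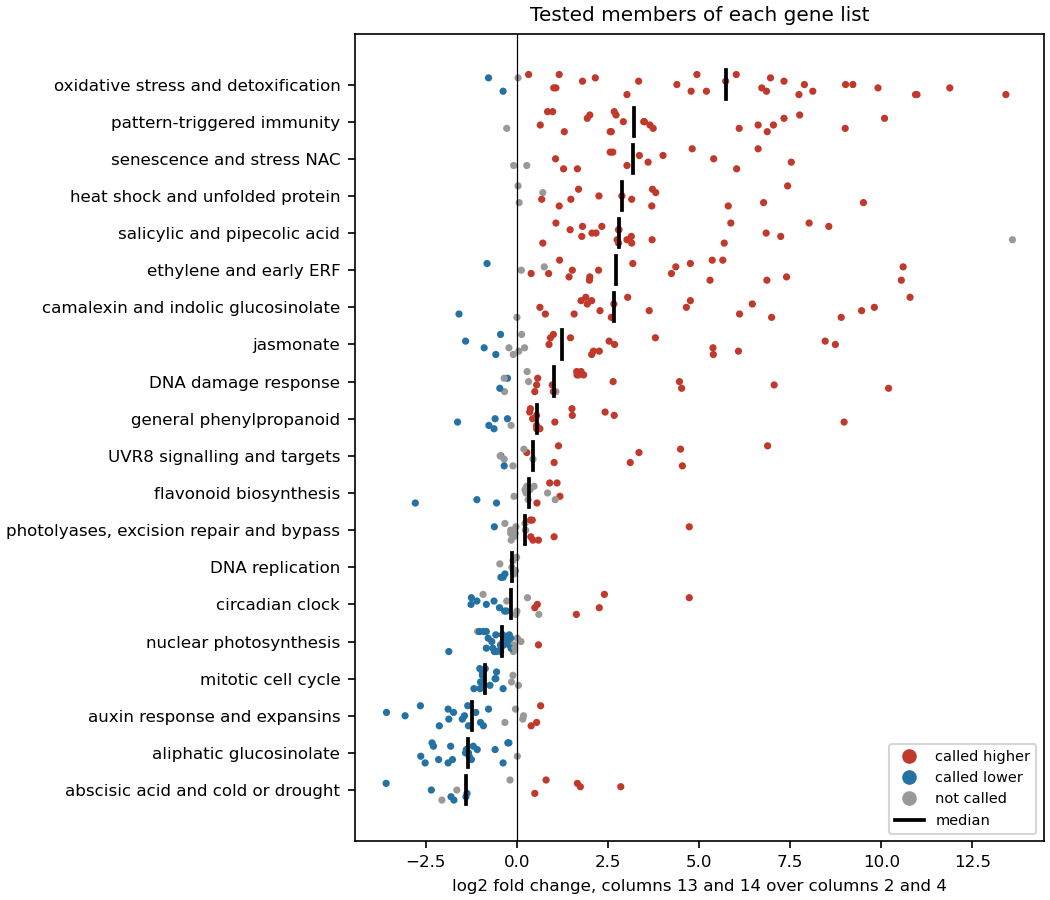
Log2 fold change of columns 13 and 14 over columns 2 and 4 for every tested member of each gene list with at least 9 tested members. The list of genotype loci is left out. Each point is 1 gene, red if called higher, blue if called lower and grey if not called, and black bars are list medians. Medians run from -1.39 for the abscisic acid, cold and drought list to 5.73 for oxidative stress and detoxification.

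Genes of UV-B perception and its targets were mixed. Of 15 tested members 8 were higher, 2 lower and 5 not called (median log2 0.44), where 30.4% of all loci were higher and 28.0% lower. At least 4-fold higher were 5 members, where 8.82% of all loci were. ELIP2, an early light-induced protein that protects the photosystems, had 90.5 and 72.6 CPM in columns 13 and 14, against 0.716 and 0.672 CPM in columns 2 and 4 (log2 6.88 ± 0.22, edgeR adjusted p = 4.48e-14). SIG5, a plastid sigma factor, had 54.9 and 47.7 CPM in columns 13 and 14, against 5.01 and 5.24 CPM in columns 2 and 4 (log2 3.35 ± 0.15). GPX7, a plastid glutathione peroxidase, had 31.5 and 28.6 CPM in columns 13 and 14, against 3.44 and 3.63 CPM in columns 2 and 4. Among signalling genes, RUP1 and SPA1 were higher (log2 1.14 ± 0.43 and 0.27 ± 0.09), while the receptor and its partner COP1 were lower: UVR8 had 95.1 and 99.7 CPM in columns 13 and 14, against 127 and 126 CPM in columns 2 and 4 (log2 -0.35 ± 0.07), and COP1 had 26.2 and 24.4 CPM against 34.2 and 35.6 CPM. HY5, the factor that drives the response, was not called, with 13.6 and 11.0 CPM in columns 13 and 14 and 15.9 and 16.0 CPM in columns 2 and 4. HY5 binds the G-box CACGTG, which on both strands lay in 1627 of 23524 promoters (6.92%) and in 3 of 16 of this list. ELIP1 had 69.6 and 38.6 CPM in columns 13 and 14, against 1.86 and 2.96 CPM in columns 2 and 4 (log2 4.49 ± 0.65), and its promoter (chr3:8085670-8085919, minus strand) is shown for the G-box it holds from -66, in capitals.
ELIP1: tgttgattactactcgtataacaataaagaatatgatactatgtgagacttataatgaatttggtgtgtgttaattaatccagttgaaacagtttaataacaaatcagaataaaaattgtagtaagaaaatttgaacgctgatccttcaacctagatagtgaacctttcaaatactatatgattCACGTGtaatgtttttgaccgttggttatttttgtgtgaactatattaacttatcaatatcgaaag

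No tested flavonoid synthesis gene was as much higher as ELIP2, SIG5 or GPX7. The list median was near that of the UV-B list (log2 0.34 against 0.44). Of 16 tested members 4 were higher, 3 lower and 9 not called, shares below those of all loci, and none was 4-fold higher (median log2 0.34). CHS, chalcone synthase at the entry of the pathway, had 147 and 94.2 CPM in columns 13 and 14 and 68.1 and 68.7 CPM in columns 2 and 4, and was not called (log2 0.84 ± 0.28, edgeR adjusted p = 0.096). Both libraries of columns 13 and 14 lay above those of columns 2 and 4. CHS was called lower under the UV label (log2 -0.35 ± 0.09). DFR, which leads to anthocyanins, was higher, with 9.49 and 6.63 CPM in columns 13 and 14 against 4.29 and 3.36 CPM in columns 2 and 4. MYB111, an activator of flavonol genes, was lower, with 0.939 and 1.66 CPM in columns 13 and 14 against 10.2 and 8.47 CPM in columns 2 and 4 (log2 -2.79 ± 0.30). FLS1, the flavonol synthase, was not called, with 30.6 and 18.3 CPM in columns 13 and 14 and 28.1 and 24.5 CPM in columns 2 and 4.

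In general phenylpropanoid metabolism, 13 of 19 tested members were higher, 5 lower and 1 not called (median log2 0.54). Over all loci 30.4% were higher and 28.0% lower, so the lower members are near the background share. PAL1, the phenylalanine ammonia lyase, had 343 and 385 CPM in columns 13 and 14, against 72.3 and 66.8 CPM in columns 2 and 4 (log2 2.42 ± 0.08). CCR2, a cinnamoyl-CoA reductase linked to defence, had 111 and 109 CPM in columns 13 and 14, against 0.143 and 0.269 CPM in columns 2 and 4 (log2 8.98 ± 0.20). It had 3 counts in columns 2 and 4, and the exact 95% interval of its fold ran from 181 to 2567. CCR1, the form of lignin synthesis, had 61.9 and 60.5 CPM in columns 13 and 14, against 43.4 and 42.7 CPM in columns 2 and 4. The sinapate ester genes were lower, with FAH1 at 106 and 110.5 CPM in columns 13 and 14 against 185 and 158 CPM in columns 2 and 4.

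In the DNA damage response list, 15 of 22 tested members were higher, 2 lower and 5 not called (median log2 1.03). The shares over all loci were 30.4% higher and 28.0% lower. At least 4-fold higher were 5 members, where 8.82% of all loci were. SOG1, the plant factor that directs the response, had 31.9 and 27.6 CPM in columns 13 and 14, against 21.5 and 19.3 CPM in columns 2 and 4 (log2 0.57 ± 0.12). Its target BRCA1 had 64.1 and 54.6 CPM in columns 13 and 14, against 21.2 and 17.7 CPM in columns 2 and 4 (log2 1.64 ± 0.12, edgeR adjusted p = 1.1e-09). The cell cycle inhibitor SMR7 had 8.24 and 7.31 CPM in columns 13 and 14, against 0.286 and 0.403 CPM in columns 2 and 4 (log2 4.46 ± 0.40). NAC085, which with NAC044 holds cells before mitosis, had 17.9 and 16.0 CPM in columns 13 and 14 and 0 counts in columns 2 and 4, at least 81.4-fold. NAC044 had 14.0 and 11.7 CPM in columns 13 and 14, against 0.429 and 0.672 CPM in columns 2 and 4. The upstream kinases were not higher: ATM was lower, with 43.9 and 42.9 CPM in columns 13 and 14 against 53.1 and 52.9 CPM in columns 2 and 4, and ATR was not called.

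SOG1 binds a palindromic motif, which on both strands lay in 2255 of 23524 promoters (9.59%) and in 6 of 22 of the DNA damage list. The same bases can match this motif and the mitochondrial dysfunction motif at once, as in the promoter of NAC044 (chr3:228825-229074, plus strand, match from -65), shown for that reason with the match in capitals.
NAC044: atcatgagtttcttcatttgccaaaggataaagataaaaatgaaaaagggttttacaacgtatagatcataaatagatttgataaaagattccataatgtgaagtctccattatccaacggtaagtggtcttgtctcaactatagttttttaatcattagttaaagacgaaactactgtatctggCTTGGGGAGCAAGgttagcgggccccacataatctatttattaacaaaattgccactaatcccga

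Among photolyases, excision repair and bypass polymerases, 7 of 19 tested members were higher, 1 lower and 11 not called (median log2 0.22), where 30.4% of all loci were higher and 58.4% were called in either direction. UVR2, the photolyase of cyclobutane pyrimidine dimers, had 9.70 and 8.18 CPM in columns 13 and 14, against 3.44 and 5.51 CPM in columns 2 and 4 (log2 1.02 ± 0.24), and UVR3, the photolyase of 6-4 photoproducts, was not called. CEN2, a centrin of damage recognition, was the member past 4-fold, with 4.59 and 3.41 CPM in columns 13 and 14 against 0.143 and 0.134 CPM in columns 2 and 4. DDB2, a damage sensor, was lower, with 7.72 and 7.31 CPM in columns 13 and 14 against 12.7 and 10.9 CPM in columns 2 and 4.

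Photosynthesis and growth genes were lower, mostly by less than 4-fold. Of 32 nuclear photosynthesis genes tested, 25 were lower, 1 higher and 6 not called, where 28.0% of all loci were lower. None of the 32 genes was past 4-fold, and their median log2 fold change was -0.40. Their summed level was 91681 and 87185 CPM in columns 13 and 14, against 108512 and 112236 CPM in columns 2 and 4. RBCS1B, a small subunit of Rubisco, had 469 and 527 CPM in columns 13 and 14, against 1840.0 and 1890.0 CPM in columns 2 and 4 (log2 -1.87 ± 0.07). PRK, a Calvin cycle kinase, had 724 and 674 CPM in columns 13 and 14, against 1282 and 1419 CPM in columns 2 and 4 (log2 -0.92 ± 0.06). The light-harvesting genes were flatter, with LHCB3 not called at 3187 and 3053 CPM in columns 13 and 14 and 3366 and 3256 CPM in columns 2 and 4. LHCB1.1 was the higher member, but the LHCB1 and RBCS copies are alike in sequence and their single values are uncertain. In whole seedlings, fewer cells of a type and less RNA per cell cannot be told apart.

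Mitotic genes were lower in 14 of 17 tested members with none higher (median log2 -0.87), where 28.0% of all loci were lower. KN, the syntaxin of the forming cell plate, had 29.6 and 32.8 CPM in columns 13 and 14, against 62.1 and 66.8 CPM in columns 2 and 4 (log2 -1.01 ± 0.10). CYCB1;1, the B-type cyclin that DNA damage is known to raise, was not called, with 14.7 and 15.1 CPM in columns 13 and 14 and 14.5 and 15.1 CPM in columns 2 and 4. CYCB1;2 was lower, with 24.3 and 25.5 CPM in columns 13 and 14 against 45.2 and 52.8 CPM in columns 2 and 4. DNA replication genes gave 3 lower of 9 tested and 6 not called, with a median of -0.14, against 28.0% lower over all loci, and their lower members MCM3, MCM7 and PCNA1 were at -0.33, -0.38 and -0.44 on the log2 scale.

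Auxin response and expansin genes were lower in 15 of 22 tested members, higher in 3 and not called in 4 (median log2 -1.23). The shares over all loci were 28.0% lower and 30.4% higher. At least 4-fold lower were 4 members, where 1.71% of all loci were. Expansins loosen the cell wall, and EXPA8 had 3.65 and 3.12 CPM in columns 13 and 14, against 36.9 and 45.7 CPM in columns 2 and 4 (log2 -3.58 ± 0.17). EXPA11 had 2.92 and 4.68 CPM in columns 13 and 14, against 30.9 and 34.9 CPM in columns 2 and 4 (log2 -3.07 ± 0.18). The auxin repressor IAA3 had 11.5 and 9.74 CPM in columns 13 and 14, against 46.4 and 48.2 CPM in columns 2 and 4 (log2 -2.13 ± 0.12). The higher members were IAA2, IAA19 and GH3.3, by 0.39, 0.65 and 0.54 on the log2 scale, while PIF4, a factor of elongation growth, was lower, with 36.0 and 35.7 CPM in columns 13 and 14 against 63.0 and 62.5 CPM in columns 2 and 4.

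In the abscisic acid, cold and drought list, 5 of 14 tested members were higher, 6 lower and 3 not called (median log2 -1.39), where 30.4% of all loci were higher and 28.0% lower. Among the higher members, picked out by role after their values were seen, NCED3, the rate-limiting enzyme of abscisic acid synthesis, had 28.2 and 26.8 CPM in columns 13 and 14, against 4.58 and 3.23 CPM in columns 2 and 4 (log2 2.85 ± 0.18), and the phosphatase ABI2 had 41.1 and 41.4 CPM against 13.0 and 12.2 CPM. Among the lower members, CBF3, a master factor of cold acclimation, had 0.626 and 0.585 CPM in columns 13 and 14, against 9.02 and 6.18 CPM in columns 2 and 4 (log2 -3.59 ± 0.37). COR47, one of its dehydrin targets, had 123 and 124 CPM in columns 13 and 14, against 432 and 402 CPM in columns 2 and 4 (log2 -1.73 ± 0.07). COR15A and KIN1, both cold-induced, were not called between the pairs. COR15A had 255 and 174.5 CPM in columns 13 and 14 and 827 and 550.1 CPM in columns 2 and 4. Each was called lower under the UV label, as described below (log2 -0.56 ± 0.08 for COR15A and -1.13 ± 0.13 for KIN1).

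Of 20 tested clock genes, 6 were higher, 8 lower and 6 not called (median log2 -0.15), where 30.4% of all loci were higher and 28.0% lower, so the counts are near the background. Among the higher members, LNK2 had 74.3 and 79.1 CPM in columns 13 and 14, against 15.6 and 16.9 CPM in columns 2 and 4 (log2 2.26 ± 0.10). CCA1 had 5.53 and 6.72 CPM in columns 13 and 14, against 1.14 and 1.21 CPM in columns 2 and 4. The lower members included PRR3 and CHE (log2 -1.26 ± 0.08 and -1.25 ± 0.09), ELF4 and TOC1. ELF4 had 55.3 and 47.0 CPM in columns 13 and 14, against 119 and 104 CPM in columns 2 and 4. TOC1 had 141 and 132 CPM in columns 13 and 14, against 219 and 213 CPM in columns 2 and 4. The labels give no clock time of harvest. Most markers of other organs were scarce. Of 13 root markers 3 were tested, and 3 were at 0 in all 4 libraries. Of the tested ones RBOHC was higher (log2 3.13 ± 0.48), SCR was lower (log2 -0.71 ± 0.13) and 1 was not called. RBOHC had 3.65 and 7.21 CPM in columns 13 and 14, against 0.716 and 0.538 CPM in columns 2 and 4. The summed level of the root markers was 247 and 204 CPM in columns 13 and 14, against 201 and 216 CPM in columns 2 and 4, nearly all of it PYK10. Of 8 flower markers 1 was tested and not called, with sums of 1.46 and 1.85 CPM in columns 13 and 14 and 4.15 and 1.88 CPM in columns 2 and 4.

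The labelled UV treatment could be compared within the pairs, with columns 14 and 4 labelled UV and columns 13 and 2 labelled mock. With the pair as a term, edgeR called 133 loci (0.782%), 110 of them higher (0.647%) and 23 lower (0.135%) under the UV label. The fit left 1 residual degree of freedom. The largest change, a decrease, was -2.43 on the log2 scale (AT2G18150). Some called loci had 0 or few counts in columns 2 and 4, so their call rests on column 14 against column 13. PAD3, for example, had 1027 CPM in column 14 and 702 CPM in column 13, against 0.537 and 0.429 CPM in columns 4 and 2. Others, such as AT1G33120, were expressed in all 4 libraries. AT1G33120 had 189 and 193 CPM in columns 14 and 4, against 87.4 and 104 CPM in columns 13 and 2 (log2 1.01 ± 0.08). It was the called locus with the smallest p and changed alike in both pairs. In the other columns it covered much the same range, from 85.1 to 179 CPM in columns from 12 to 22. In those from 1 to 11 it ran from 92.2 to 197.6 CPM. DIN11, a dark-inducible dioxygenase, had 142 and 0.941 CPM in columns 14 and 4, against 53.9 and 0.572 CPM in columns 13 and 2. FMO1 was higher in column 14 than in column 13, at 243 against 116 CPM, with 0 counts in columns 4 and 2. UGT76B1, a glucosyltransferase that tempers salicylic acid defence, had 61.2 and 1.21 CPM in columns 14 and 4, against 23.0 and 0.286 CPM in columns 13 and 2. GPT2, a plastid glucose phosphate transporter, had 151 CPM in column 14 against 69.3 CPM in column 13, and 0.672 CPM in column 4 against 1.72 CPM in column 2, so the pairs went opposite ways.

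On the lower side, KIN1, a cold-induced gene, had 10.1 and 26.7 CPM in columns 14 and 4, against 13.9 and 76.1 CPM in columns 13 and 2 (log2 -1.13 ± 0.13). COR15A had 174.5 and 550.1 CPM in columns 14 and 4, against 255 and 827 CPM in columns 13 and 2, and RD29A had 36.7 and 203 CPM against 55.4 and 276 CPM. These cold-response genes were lower in the library labelled UV of each pair. GRP9 had 3.90 and 0.806 CPM in columns 14 and 4, against 20.7 and 0.286 CPM in columns 13 and 2, so it was lower in 1 pair and at a low level in the other. FSD1 completed the first 5, with 466 and 465 CPM in columns 14 and 4 against 670 and 672 CPM in columns 13 and 2 (log2 -0.52 ± 0.08). Of the flavonoid genes 0 were higher and 2 were lower, and CHS had 94.2 and 68.7 CPM in columns 14 and 4, against 147 and 68.1 CPM in columns 13 and 2. Of the 133 loci, 84 were also called between the pairs, 58.4% of all loci being so called. DESeq2 called 11 loci (8 higher and 3 lower) where edgeR called 133.

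Whether the difference was particular to the GSL-OH-low genotype was tested against the other 18 columns, as the difference between the columns from 12 to 22 and those from 1 to 11. Called loci of the 4 columns had the same sign in the other 18 in 9680 of 9941 cases, and in 1781 of the 1791 that were 4-fold. WRKY40, for example, ran from 270 to 922 CPM (median 322) in the other 9 columns from 12 to 22 and from 0.164 to 21.6 CPM (median 0.567) in the other 9 columns from 1 to 11. AT5G51440 ran from 231 to 291 CPM (median 259) in the other columns from 12 to 22 and from 0.774 to 3.39 CPM (median 1.00) in the other columns from 1 to 11. The list medians of the 4 columns were near those of the other 18 for heat shock (2.88 in the 4 against 3.13 in the 18) and aliphatic glucosinolates (-1.35 in the 4 against -1.17 in the 18), and further off for salicylic and pipecolic acid (2.80 in the 4 against 1.46 in the 18). None of these list differences was tested. AT5G22530 varied within a set, at 0 to 41.8 CPM (median 0.635) in the other columns from 12 to 22.

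Of 18149 loci tested for a difference of differences over 22 libraries, edgeR called 1 (0.00551%), and 839 had an unadjusted p under 0.05. DESeq2 called 18 (7 higher and 11 lower), and edgeR without column 4 called 3 (2 higher and 1 lower). The biological coefficient of variation of that fit was 31.4% and that of the 4-library fit was 6.38%; the other columns mix several genotypes. The called locus was MGE1 (AT5G55200), a GrpE-type co-chaperone of mitochondrial Hsp70. MGE1 had 21.7 and 21.7 CPM in columns 13 and 14 and 23.0 and 22.4 CPM in columns 2 and 4, and was not called between them (log2 -0.04 ± 0.12). It had 52.7 to 81.3 CPM (median 65.2) in the other columns from 12 to 22, against 9.65 to 17.0 CPM (median 13.6) in the other columns from 1 to 11. The difference of differences was -2.31 ± 0.24 on the log2 scale (edgeR adjusted p = 0.000106). The 4 GSL-OH-low columns lay together, above one set of other columns and below the other, with no overlap.

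**Figure D5:**
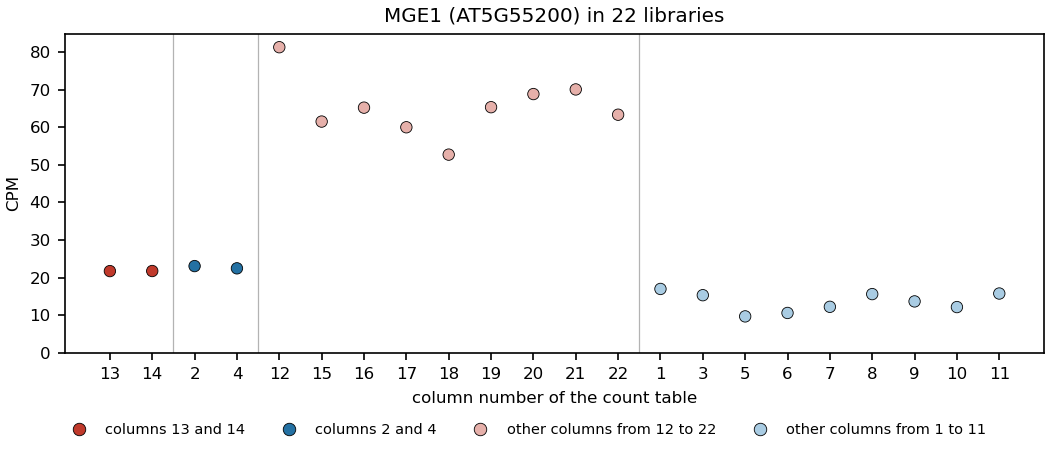
CPM of MGE1 in each of 22 libraries, by column of the count table, on a linear axis from 0. Columns 13 and 14 (21.7 and 21.7 CPM) lie beside columns 2 and 4 (23.0 and 22.4 CPM), between the other columns from 12 to 22 (52.7 to 81.3 CPM) and the other columns from 1 to 11 (9.65 to 17.0 CPM).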

How the data were processed

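Per the labels, RNA of whole seedlings was extracted with RNeasy columns and DNase and made into TruSeq libraries. The authors deposited whole-number counts for 24185 loci in 22 libraries, with no normalization. The submitters' processing notes name FastQC, TopHat, TAIR9 and TAIR10. The counter, annotation and strand setting were not given in the sources used here, so overlapping and antisense genes cannot be told apart. Every column was matched to a sample by its number, and 0 were left unmatched.

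The tests were run with edgeR 4.0.16 under R 4.3.3 (TMM, robust quasi-likelihood fit) for loci reaching 1 CPM in 2 or more libraries, with Benjamini-Hochberg adjustment over all loci tested and calls at 0.05. The pair difference used the 4 libraries alone. The labelled treatment used the same libraries with the pair as a term and 1 residual degree of freedom. The difference of differences used 4 group means over 22 libraries. The error after each log2 fold change is the size of that change divided by the square root of its quasi-likelihood F. It understates the counting error where a pair holds few counts, as for ACS2 and CCR2. CYP81D8 and WRKY40 also had few counts in columns 2 and 4 (4 and 6). Levels (CPM) are counts scaled to the library total and are not per length, so they are not compared between genes. The scripts were tested on simulated data. A count of 3 was taken as the limit a count of 0 allows; it equals 0.429 CPM in column 2 and 0.403 CPM in column 4, and covers counting error only.

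The members and gene lists were chosen with earlier results of these data known. Named were the 10 highest and 10 lowest log2 fold changes among called, non-overlapping loci with at least 10 CPM in the higher pair, up to 4 called members of each list by smallest p, up to 5 loci a direction for the other tests, and the genotype loci. Other list members are given to show their roles and were chosen after their values were seen. Of the loci, 23847 matched the RefSeq gene table of TAIR10.1, which gave symbols; 8 list members were not in the count table. Alternatives were DESeq2 1.42.0, limma 3.58.1 (voom), other scalings and filters, leaving out each library, a treatment block and a fit over all libraries.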

Additional observations from a re-analysis of the deposited data

Results flagged for a closer look

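For MGE1, the difference between the 2 sets of columns was not the same in the GSL-OH-low columns as in the other 18, by the test of that difference itself. MGE1 had 21.7 and 21.7 CPM in columns 13 and 14 and 23.0 and 22.4 CPM in columns 2 and 4. Its medians were 65.2 CPM in the other columns from 12 to 22 and 13.6 CPM in the other columns from 1 to 11. The difference of differences was -2.31 ± 0.24 on the log2 scale (edgeR adjusted p = 0.000106), and -2.31 under DESeq2 (adjusted p = 3.49e-17). The levels in all 4 columns lay outside both of the other ranges.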

How the results depend on the processing

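Counts of the pair difference stayed within 1.5 times the main 9941 under DESeq2 size factors (9897), DESeq2 (7319), limma voom (9869), no filter (10239), a 10-count filter (9954) and a labelled treatment block (10301). An added setting chosen after seeing the data, library totals without TMM factors, gave 10020 (4964 higher and 5056 lower). The fit over 22 libraries called 5543 loci (2903 higher and 2640 lower); its spread takes in several genotypes. Leaving out 1 library gave 8147 to 8585 calls (4137 to 4557 higher, 4010 to 4074 lower) and 1174 to 1744 at 4-fold. The lowest 4-fold counts, 1174 without column 13 and 1183 without column 14, tested fewer loci. DESeq2 called 11 loci in the labelled treatment comparison (8 higher, 3 lower), against 133, and 18 in the difference of differences (7 higher, 11 lower), against 1; the cause was not tested. Leaving out 1 library gave 1 to 3 calls there (0 to 2 higher, 1 to 1 lower), with 3 calls (2 higher) without column 4.

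Of 112 named genes of the pair difference, 94 kept their direction and call under all of these settings, and 0 changed direction. Of 1287 values, 24 lost the call, 16 of them in the fit over 22 libraries. No paired analysis was possible because the labelled groups share fewer than 2 replicate numbers, so that replicates could not be paired by number; the terms fitted as blocks, the labelled treatment and the pair of columns, are not replicate numbers. With each pair holding 1 library of each label, leaving one out of the labelled treatment comparison leaves no residual degree of freedom. Depth limits low loci: 0 counts in columns 2 and 4 allow up to 0.429 and 0.403 CPM.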

Other observations

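Genes of copper and iron superoxide dismutases differed between the libraries labelled UV and mock, alike in both pairs. CSD2, the plastid copper/zinc superoxide dismutase, had 544 and 437 CPM in columns 14 and 4 (labelled UV), against 334 and 307 CPM in columns 13 and 2 (labelled mock; log2 0.62 ± 0.08). CCS, the chaperone that loads copper into these enzymes, had 80.3 and 81.3 CPM in columns 14 and 4, against 57.3 and 53.7 CPM in columns 13 and 2 (log2 0.55 ± 0.09). CSD1, the cytosolic enzyme, was also called, with 332 and 156 CPM in columns 14 and 4 against 259.7 and 132 CPM in columns 13 and 2 (log2 0.31 ± 0.08). FSD1, the iron enzyme, was lower in both. Across the other 18 libraries CSD2 ran from 138 to 857 CPM in columns from 12 to 22 and from 203 to 1084 CPM in columns from 1 to 11, so these genes varied more between other columns than within the pairs. These 4 genes were picked out after their values had been seen.

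Of the 10 loci that were on in columns 13 and 14 and off in columns 2 and 4, several have named families. GSTU3, a tau-class glutathione transferase, had 18.7 and 26.9 CPM in columns 13 and 14, against 0 and 0.134 CPM in columns 2 and 4. DLAH, a lipase of the alpha/beta hydrolase family, had 44.6 and 32.5 CPM in columns 13 and 14, against 0.143 and 0 CPM in columns 2 and 4. AT5G55150 had 34.3 and 28.0 CPM in columns 13 and 14 and 0 in both columns 2 and 4. GSTU3 reached 19.5 CPM in column 3, so its state does not follow the 2 sets of columns throughout. CSA1 and DAR4, neighbouring genes of a paired immune receptor, were off in all 4 columns, at no more than 0.134 CPM.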
